A study of Drosophila melanogaster with 4 samples.

Results

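Cuticular protein genes and pale (ple), which encodes tyrosine hydroxylase, were examined in ovaries of Drosophila melanogaster females carrying snf148 and of wild-type females. The 10 genes were taken by name from the 1283 genes that the authors listed as different between the genotypes. They were all rows named Cpr followed by a digit, of which there were 7, together with Acp65Aa, Edg91 and ple. The names were selected on the mean levels of these tables in both genotypes, so the differences below describe the genes and test nothing. Of the 10 genes, 8 cuticular protein genes were listed as higher in snf148, whereas ple and Edg91 were listed as lower. Over all genes, 10.9% of about 11724 tested, a number inferred from the deposited P values, were listed, 5.67% as higher and 5.27% as lower. Nothing is read from the members' counts against these shares.

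The mutant females were 3-day adults of the genotype y w snf148 v, and the mutated gene, sans fille (snf), makes a shared protein component of the spliceosomal U1 and U2 particles. The wild-type females were y w virgins of 0 to 24 hours, and each genotype was represented by 2 libraries. Both genotypes thus carried y, an allele of yellow, a gene of dark cuticle pigment, and w, an allele of the eye colour gene white; v, an allele of vermilion, another eye colour gene, was named for the mutant only. The labels do not give the mating status of the mutants, and effects of genotype, age and mating cannot be told apart in this comparison.

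Insect cuticle is a layer of chitin fibres and proteins that epidermal cells secrete on their outer face. Proteins of the Cpr family bind chitin through a conserved stretch, the Rebers and Riddiford consensus. After a moult the cuticle is hardened and darkened by tanning. Tyrosine hydroxylase makes DOPA, DOPA decarboxylase turns it into dopamine, and derivatives of dopamine are oxidised to quinones that crosslink the proteins. The new adult tans its cuticle in the first hours after eclosion. The ovary itself bears no cuticle, but the oviducts, spermathecae and uterus joined to it are lined by one. Ovarian follicle cells build a different protein coat, the eggshell.

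Levels are the authors' deposited group means in FPKM, that is, fragment counts divided by transcript length and by the mapped total. Between genes they can be set against each other only roughly, since how fragments were counted is not stated in the sources used here. No library has a value of its own in the tables, the depth is unknown, and no SD stands beside a mean. Whether the libraries of the genotypes overlapped is therefore not known for any gene, nor whether neighbours in an order of levels differed beyond their spread. In bulk tissue, more cells of a type and more RNA per cell cannot be told apart.

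The highest level in snf148 was that of Acp65Aa (FBgn0020765), an adult cuticle protein gene, with a mean of 78.6 FPKM against 2.04 FPKM in wild type. This is a 38.5-fold ratio, or 5.27 on the log2 scale of snf148 over wild type. The gene lies at 6145150 to 6145845 on 3L (the tables name no build) and encodes a protein of 105 residues in the Ensembl release 115 annotation. It belongs to a group of 18 annotated genes at 65A named Cpr, Lcp or Acp, of which 2 were listed.

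The other listed gene of that group was Cpr65Au (FBgn0042119), at 6124415 to 6125209 on 3L. Its mean was 14.3 FPKM in snf148 and 0.290 FPKM in wild type. The 49.2-fold ratio (log2 5.62) was the highest among the 10 genes, although the authors' deposited table gave it the weakest adjusted P value among them, 0.0450. It was the member nearest to the authors' threshold of 0.05, and no gene beyond that threshold was analysed here. Its neighbours on both sides, Lcp65Ag3 and Lcp65Ag2, encode larval cuticle proteins and were not listed. An annotated antisense RNA, CR46005, overlaps Cpr65Au, the only one of the 10 genes with an overlapping annotated gene. The libraries were stranded, but whether counting used the strand is not given in the sources used here, so reads of the gene and of its antisense partner may not have been separated. Its transcripts of 453 and 526 nt were also the shortest among the 10 genes.

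At 49A on 2R, 3 of 8 annotated Cpr genes were listed, all higher in snf148. Cpr49Ae (FBgn0033728), at 8289720 to 8292619, stood at 66.3 FPKM in snf148 and 2.99 FPKM in wild type, a 22.2-fold ratio. Cpr49Ab (FBgn0050042), at 8265945 to 8266901, stood at 15.6 against 1.28 FPKM, a 12.2-fold ratio. Cpr49Ah (FBgn0033731), at 8301467 to 8302675, stood at 5.69 against 0.224 FPKM, a 25.4-fold ratio. The order of the levels, Cpr49Ae above Cpr49Ab above Cpr49Ah, was the same in both genotypes. The 5 other genes of the group, among them Cpr49Af next to Cpr49Ae, were not listed, which says nothing about their levels. By distance between starts, the only listed genes within 20 kb of any of the 10 genes were members themselves, Cpr49Ae and Cpr49Ah, which start 11747 bp apart. Cpr65Au and Acp65Aa start 20735 bp apart, just beyond that limit.

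The remaining Cpr genes lie apart from each other. Cpr92F (FBgn0038819), at 16495293 to 16498538 on 3R, stood at 19.2 FPKM in snf148 and 0.947 FPKM in wild type, a 20.3-fold ratio. Cpr67B (FBgn0035985), at 9397897 to 9399274 on 3L, stood at 7.44 against 0.676 FPKM, and its 11.0-fold ratio (log2 3.46) was the smallest of the higher members. Cpr47Ee (FBgn0033602), at 7152631 to 7154361 on 2R, was the weakest of them, at 2.18 against 0.0894 FPKM, or 24.3-fold. It was the only one listed of 7 annotated Cpr genes at 47E. Cpr67B and Cpr92F have no neighbour that is named as a cuticle gene.

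**Figure D1:**
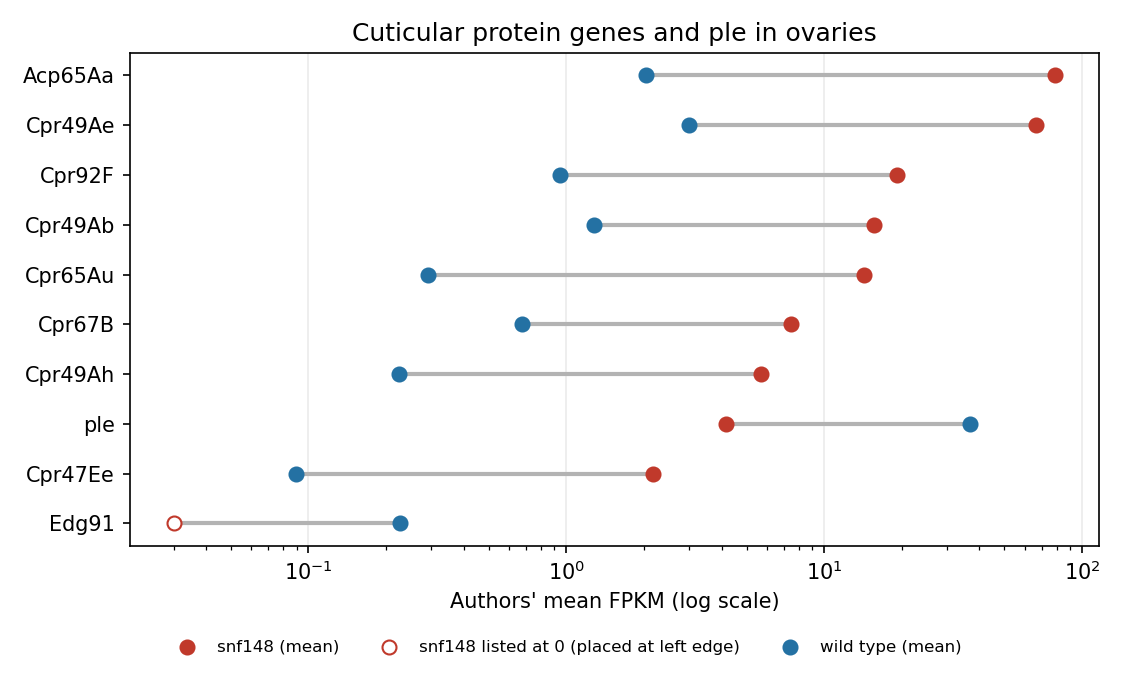
Mean FPKM (log axis) of the 10 genes in snf148 (red) and wild-type (blue) ovaries, 1 row per gene in order of the snf148 level; points are the authors' means of 2 libraries and carry no error bars, and the grey line joins the means of 1 gene. In 8 rows the red point lies to the right; in ple and Edg91 it lies to the left, and the open symbol of Edg91 marks a mean listed at 0, which has no place on a log axis.

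As a group, the 8 higher genes ranged from 2.18 to 78.6 FPKM in snf148 and from 0.0894 to 2.99 FPKM in wild type. In wild type 5 of the 8 were below 1 FPKM, and in snf148 5 reached at least 10 FPKM. Their median log2 ratio was 4.54, beside 2.26 for the 626 listed higher genes above 0 in both genotypes. All 8 differed by at least 10-fold, as did 153 of those 626 genes, and by size of ratio they held places between 16 and 138. Their median level in snf148, 15.0 FPKM, was close to that of all 665 higher genes, 14.1 FPKM, whereas the wild-type medians were 0.812 and 2.03 FPKM. The 8 genes have 2 or 3 exons and encode proteins of 105 to 381 residues. The reference annotation names 70 Cpr genes in all, of which 7 were listed; how many of the other 63 were tested by the authors is not known.

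**Figure D2:**
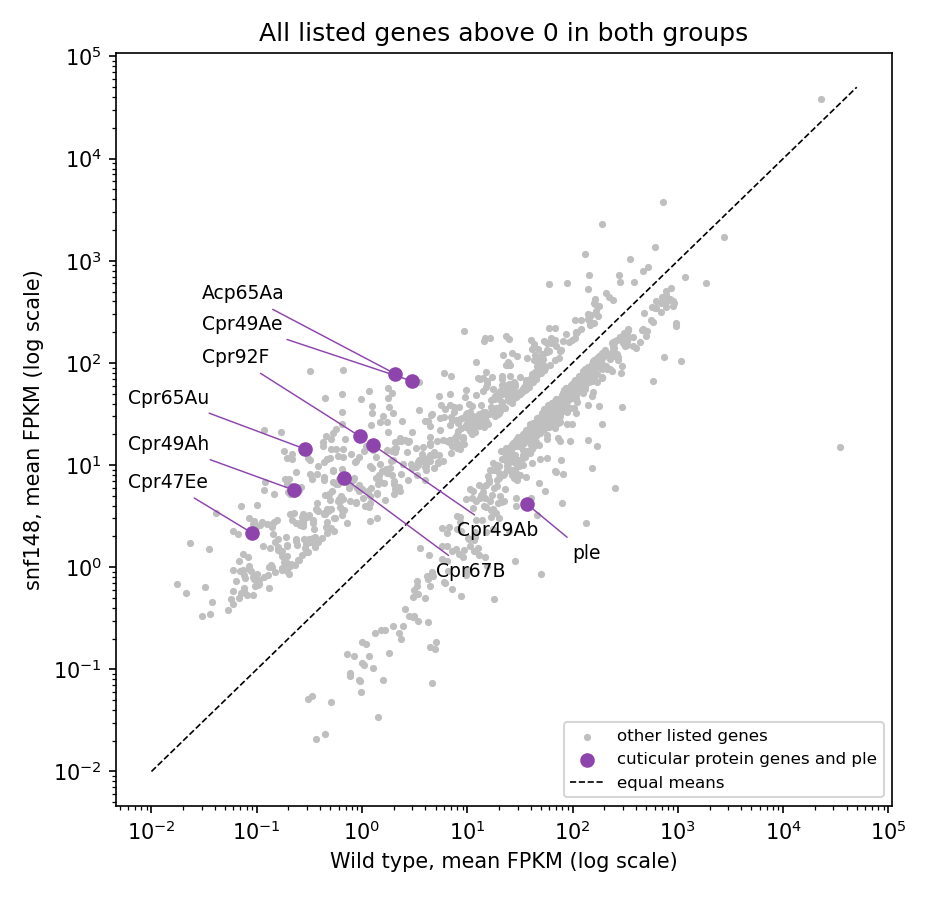
Mean FPKM in snf148 (vertical, log axis) against wild type (horizontal, log axis) for the 1242 listed genes above 0 in both genotypes, with 9 of the 10 genes in purple; Edg91 is listed at 0 in snf148 and is not drawn. The 8 cuticular protein genes lie above the dashed line of equal means, at wild-type levels of at most 2.99 FPKM, and ple lies below it. The empty band along the line is where genes did not pass the authors' threshold.

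The tanning enzyme gene ple (FBgn0005626) went the other way, with 4.16 FPKM in snf148 and 36.7 FPKM in wild type. It was 8.82-fold lower in snf148, a log2 ratio of -3.14, beside a median of -1.06 for the 616 listed lower genes above 0 in both genotypes. In wild type it stood above every cuticular protein gene among the 10, and in snf148 below all of the higher ones except Cpr47Ee. The gene lies at 6707138 to 6712625 on 3L. Its annotated transcripts encode proteins of up to 579 residues, the form known from the epidermis, and of 508 residues, the form known from neurons. A value for the whole gene does not separate these forms.

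Edg91 (FBgn0004554), an ecdysone-dependent gene of pupal cuticle, was listed at 0 in snf148 and at 0.226 FPKM in wild type. It lies at 13436578 to 13437233 on 3R. With one mean at 0 and the depth unknown, no fold is given. Its wild-type level was the lowest higher-group mean among the 10 genes.

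In the authors' deposited table, 7 of the 10 genes shared the smallest adjusted P value, 0.00126, as did 466 of all listed genes. The others were Cpr47Ee at 0.0134, Edg91 at 0.0146 and Cpr65Au at 0.0450.

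Catecholamine and tanning genes other than ple went both ways, and not all of them encode tanning enzymes. Of 37 genes on a list of catecholamine and tanning genes, 6 were in the tables, 4 of them lower in snf148 and 2 higher, with a median log2 ratio of -1.52; the median over all listed genes was 0.62. Ebony (e), the enzyme that joins dopamine to beta-alanine for tan cuticle, stood at 0.487 FPKM in snf148 and 17.8 FPKM in wild type, 36.6-fold lower. Black (b), which makes the beta-alanine that ebony uses, stood at 2.14 against 6.47 FPKM. Punch (Pu), the GTP cyclohydrolase of the cofactor that tyrosine hydroxylase needs, stood at 4.45 against 12.2 FPKM. For b and Pu the authors' deposited table gave adjusted P values of 0.0437 and 0.0463, near the threshold.

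The fourth lower gene of that list was yellow-g2, a relative of yellow that acts in the eggshell, at 2.20 against 11.8 FPKM. The higher genes were alpha methyl dopa-resistant (amd), whose product converts DOPA to an aldehyde used in soft cuticle, at 6.75 FPKM in snf148 against 0.529 FPKM in wild type, and the vesicular monoamine transporter gene Vmat of aminergic neurons, at 30.6 against 4.48 FPKM. DOPA decarboxylase (Ddc), the enzyme after tyrosine hydroxylase, was not among the listed genes, and nor was yellow itself.

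Of 9 phenoloxidase and melanisation genes, 2 were listed, both higher in snf148. Prophenoloxidases are made by crystal cells, a class of blood cell, and oxidise phenols at wounds. PPO1, listed as proPO-A1, stood at 17.2 FPKM in snf148 and 2.37 FPKM in wild type, and PPO2, listed as proPO45, at 14.7 against 2.11 FPKM. The locus given for PPO1 spans 51646 bp, whereas the annotated gene spans 2754 bp, so its value is uncertain.

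Chitin genes were listed 3 times among 34 on the list, 1 higher and 2 lower in snf148. Cht5, a chitinase that digests old cuticle at moults, stood at 3.23 FPKM in snf148 and 45.8 FPKM in wild type, 14.2-fold lower. The chitin deacetylase gene Cda4 stood at 1.14 against 6.41 FPKM. The chitinase gene listed as Cht3, now Cht10, was higher, at 5.57 against 0.927 FPKM.

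Of 80 other genes of cuticle and apical matrix, 7 were listed, 4 higher and 3 lower in snf148, with a median log2 ratio of 0.96. Crys, listed as Cry and encoding drosocrystallin of the corneal lens, stood at 1.16 against 0.0672 FPKM. The gene l(3)mbn, which neighbours the 65A group, stood at 0.691 against 0.103 FPKM, with an adjusted P value of 0.0419 in the authors' deposited table. Its value is uncertain too, since its locus spans 31191 bp in the tables and 4874 bp in the annotation. The zona pellucida gene pio stood at 22.3 against 11.4 FPKM, and dumpy, listed as dp, a giant matrix protein that anchors epidermis to cuticle, at 3.02 against 1.39 FPKM. Among the lower genes, the chitin-binding proteins Gasp and obst-B stood at 13.7 against 34.6 and 1.21 against 5.76 FPKM. The third lower gene was neo, another zona pellucida gene, at 0.245 against 1.501 FPKM.

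**Figure D3:**
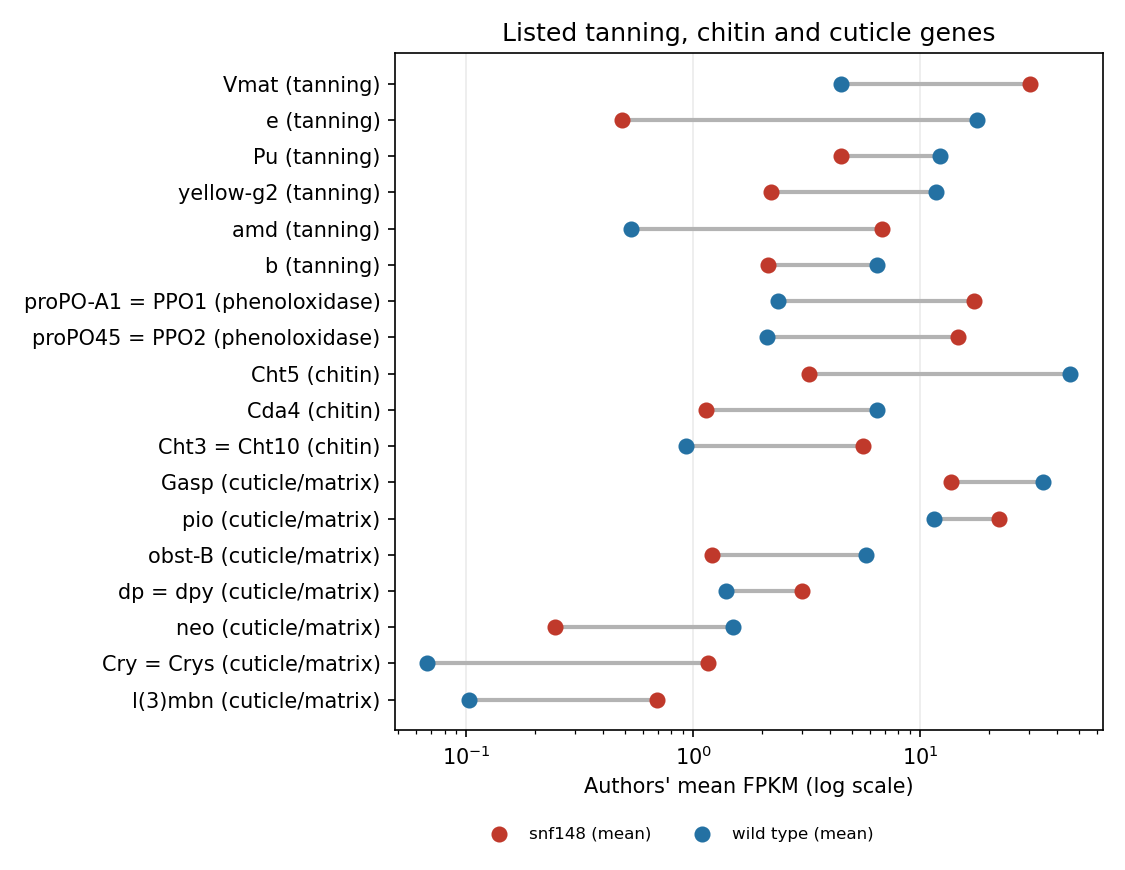
Mean FPKM (log axis) in snf148 (red) and wild type (blue) of the 18 listed genes of the tanning, phenoloxidase, chitin and cuticle or matrix lists, with current names after older ones. Points are the authors' means without error bars. Red lies to the left in e, Pu, yellow-g2, b, Cht5, Cda4, Gasp, obst-B and neo, and to the right in the other 9 genes.

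Of 40 genes of moulting hormones and their targets, 2 were listed, both higher in snf148. Cyp18a1, a cytochrome P450 that inactivates ecdysone, stood at 62.2 against 15.5 FPKM, and the lactate dehydrogenase gene ImpL3 at 27.5 against 7.11 FPKM. No gene of the ecdysone receptor, of ftz-f1 or of the bursicon pathway that sets off tanning was listed.

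Some marker genes of other cells that dissected tissue can hold were listed as well. Their part in the values of the cuticular genes was not tested. Over all genes 10.9% were listed, and nothing is read from the marker counts against this share. For the oviduct and spermatheca, 2 of 4 marker genes were listed, both higher in snf148. The spermathecal protease gene Send1 stood at 44.6 FPKM in snf148 and 0.985 FPKM in wild type, and lozenge (lz), a transcription factor of spermathecal glands and crystal cells, at 0.483 against 0.0565 FPKM. For the cuticle-secreting epidermis, ple was the only listed gene of 6. None of 4 tracheal markers was listed.

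Muscle markers were lower in snf148 in all 4 listed cases of 18: Act87E stood at 66.1 against 125 FPKM, Act79B at 1.02 against 15.4, Act88F at 2.91 against 13.7 and fln at 0.820 against 4.75 FPKM. Haemocyte markers were higher in both listed cases of 7, with Pxn at 94.8 against 24.6 FPKM and Sr-CI at 12.5 against 4.87 FPKM. Neuron markers were higher in both listed cases of 9, Vmat as above and Tbh, which makes octopamine, at 2.56 against 0.272 FPKM. The neuron markers elav, brp, nSyb and Syt1 were not listed, which says nothing about their levels. Fat body markers were split, with Lsp1gamma at 39.0 against 141 FPKM and Rfabg at 59.8 against 25.3 FPKM. Summed levels of whole marker lists cannot be given, since the listed genes are only those past the authors' threshold.

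Of 17 genes on the ovary marker list, 12 were listed, 5 higher and 7 lower. That these genes are active in the ovary alone is not shown here. The germ plasm gene osk stood at 248 FPKM in snf148 against 967 FPKM in wild type and the vitelline membrane gene Vm26Aa at 219 against 67.9 FPKM. The highest genes of that list in snf148 were Yp1 at 1173 against 131 FPKM, Yp2 at 729 against 145 FPKM and Yp3 at 534 against 140 FPKM. The listed chorion genes were all lower in snf148 but stood at unlike levels there. Cp18 had the lowest level of the 12 in snf148, 5.98 FPKM, against 251 FPKM in wild type. Cp15 stood at 67.2 against 578 FPKM and Cp19 at 83.5 against 235 FPKM. In snf148 Cp18 lay below 6 of the 10 genes, whereas Cp19 lay above every one of them.

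**Figure D4:**
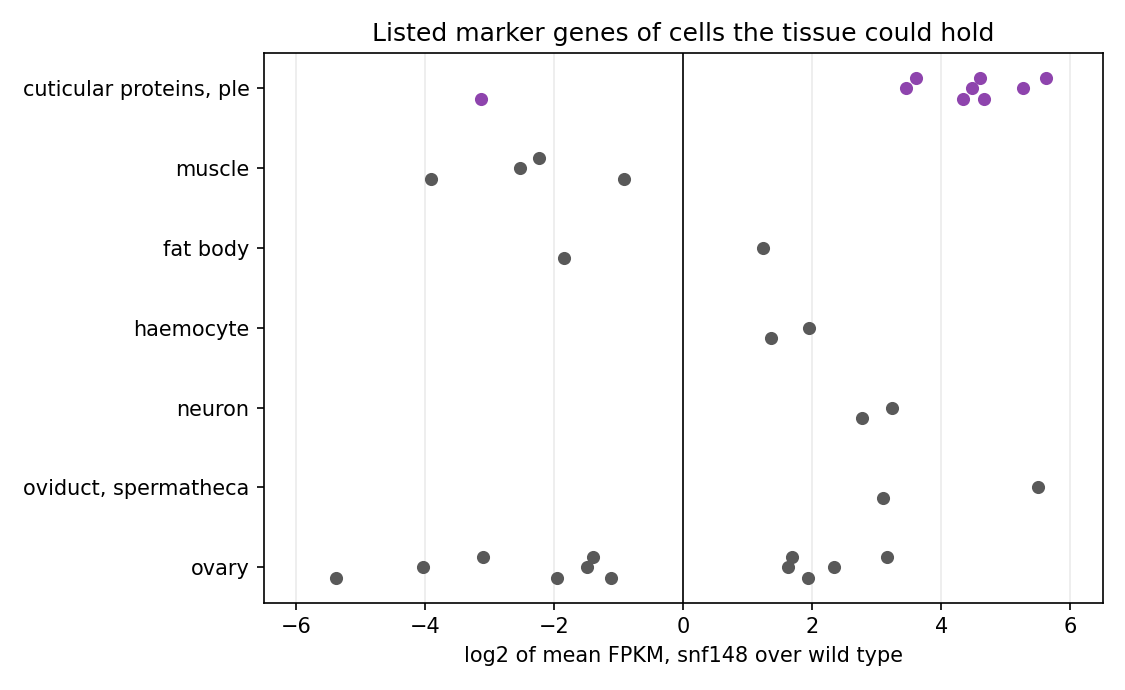
Log2 ratio of the authors' mean FPKM, snf148 over wild type, for the members and for listed markers of other cells and of the ovary. The marker lists drawn are muscle, fat body, haemocyte, neuron, oviduct and spermatheca, and ovary. Each point is 1 gene, vertical offsets only separate points, and Edg91 has no ratio. Cuticular protein genes lie between 3.46 and 5.62 and ple at -3.14; listed muscle markers all lie below 0, and those of haemocytes, neurons and the oviduct and spermatheca all above 0.

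For each of the 9 genes above 0 in both genotypes, the 2 listed genes nearest in log2 mean FPKM of both genotypes were taken as most alike, a likeness that rests on 2 group means. Acp65Aa and Cpr49Ae were among each other's nearest genes, 0.60 apart on that scale. The nearest gene to Acp65Aa was blanks, which encodes an RNA-binding protein of the testis, at 56.7 against 1.75 FPKM, and the nearest to Cpr49Ae was CG13540, at 65.3 against 3.48 FPKM. For ple they were phr6-4, a photolyase gene, at 4.75 against 40.5 FPKM, and CG44005, at 3.95 against 28.7 FPKM. For Cpr65Au they were CG9411 and CG42300, for Cpr49Ah hydra and CG8119, and for Cpr47Ee Rpt4R and CG11929. For Cpr92F they were CG14508 and qjt, for Cpr49Ab LysX and CG14508, and for Cpr67B CG14346 and Hsp70Bb. No other pair of the 10 genes was among the nearest.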

How the data were processed

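RNA of ovaries was sequenced as stranded total RNA libraries with paired ends, per the labels' protocols, and were processed with TopHat2 2.0.9 and Cuffdiff, per the submitters' processing notes. The genome build and how fragments were counted are not stated in the sources used here. Per the file headers, the deposited tables hold the authors' mean FPKM per genotype, their log2 fold change (with wild type as the numerator) and a p-value before and after adjustment. The tables hold no value of a single library, so the planned fits could not be run, depth is unknown and no test was made. Direction and folds were recomputed from the FPKM columns as snf148 over wild type; of 1242 ratios, 5 were over 0.001 away from the deposited log2 value. If the adjustment was Benjamini-Hochberg, the deposited P values imply 11693 to 11737 genes tested (median 11724). The calculation was tested on simulated data in which every gene past the threshold was kept. Genes past the threshold but missing from the lists would make the implied number too low, and this was not simulated. Deposited starts were moved to count from 1. Names were matched to RefSeq release 6 for 1272 of 1283 genes, using the chromosome arm where an older name was shared. Exons and protein lengths are from the Ensembl release 115 annotation. The members and lists were chosen with earlier results of these data known. Named genes were all members, every listed gene of the cuticle, tanning, phenoloxidase and chitin lists, up to 4 per direction of the hormone and cell lists, the 2 nearest genes of each member, and listed genes starting within 20 kb of a member's start. Analyses used Python 3.11.15 with pandas 2.3.3.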

Additional observations from a re-analysis of the deposited data

How the results depend on the processing

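The 9 members with a ratio kept their direction under both pseudocounts and under the deposited fold changes. Of 27 alternative log2 ratios, 20 stayed within 1.5-fold of the recomputed ratio and 7 moved by more. With a pseudocount of 1 FPKM the log2 ratio was 3.57 for Cpr65Au, 2.45 for Cpr49Ah, 1.54 for Cpr47Ee, 3.37 for Cpr92F, 2.87 for Cpr49Ab and 2.33 for Cpr67B; with 0.1 FPKM it was 3.59 for Cpr47Ee. A pseudocount lowers the ratio most where a mean is small, by construction. Of 40 alternative gene counts, 32 stayed within 1.5 times and 8 were smaller, because fewer genes were counted. Lower members numbered 1, which is ple, at the stricter threshold of 0.01 on adjusted P, with at least 1 FPKM in the higher group, and with genes at 0 left out. That threshold left 1 higher gene of the other cuticle list, 1 lower tanning gene and 1 lower chitin gene. At least 4-fold left 2 higher genes of the other cuticle list and 2 lower tanning genes. No paired analysis was possible because the tables hold only group means, and for the same reason leaving out libraries, another normalization and a filter on counts were not run. Depth, and so the precision of means under 1 FPKM, is unknown.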

Other observations

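A few further listed genes stand outside the lists above. They were picked, with their values in view, for a possible link to cuticle or dopamine. The gene listed as Clect27, now slf, which encodes a C-type lectin of the cuticle, stood at 6.58 FPKM in snf148 and 1.42 FPKM in wild type. The dopamine receptor gene listed as DopR2 stood at 0.0206 against 0.367 FPKM. CG15766, now AgmNAT, an N-acetyltransferase gene, stood at 3.41 against 18.7 FPKM, and no link of it to cuticle or dopamine is shown here.

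Among the 65 listed genes that were at least 10-fold higher in snf148 and reached at least 10 FPKM there, 47 had the smallest P value in the authors' deposited table, 5e-05. Cpr65Au had the largest adjusted P value of these 65 genes, 0.0450, followed by CG31681 at 0.0412.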
